A study of Mus musculus with 18 samples.

Results

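The circRNA array used in this study also carries probes for ordinary linear messenger RNAs, and these are described here. They were chosen by their probe name in the scanner files (names starting with A_51, spots that are not controls), without any measured value. There are 50 of them among the 14286 probes compared, and the other 14236 are circRNA probes. Each mRNA probe stands in 10 spots on every array, whose values were averaged. The files give an accession for each probe. For 46 of the 50 the accession matched a gene in RefSeq, and the 4 probes without a match (ENSMUST00000115991, ENSMUST00000133268, ENSMUST00000232505 and AK004226) are named by their accession. The genes are a mixed set: brain transcripts such as Mbp (myelin basic protein), Apoe (a lipid carrier made by glia) and Chgb (a secretory granule protein), and transcripts not typical of cortex such as Il2 (a T cell cytokine), Tyr (an enzyme of pigment synthesis) and a pair of olfactory receptors.

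N6-methyladenosine (m6A) is a common internal mark on mRNA, written by a methyltransferase complex, removed by demethylases and read by proteins that affect splicing, translation and decay. An antibody against m6A separates RNA into a bound fraction (IP) and an unbound supernatant (Sup). RNase R digests most linear RNA from its ends and spares circles. Whether the signal of a linear probe on these arrays is linear RNA left after that digestion was not tested.

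The samples were peri-infarct cortex of C57BL/6J mice aged 10 weeks: a sham-operated group, a group taken 3 days after distal MCAO (occlusion of the middle cerebral artery; 3d group) and a group taken 7 days after it (7d group), with 3 biological replicates each. The day on which sham mice were sampled was not used. In all groups both fractions were treated with RNase R, the IP was labelled with Cy5 and the Sup with Cy3, and both were hybridised to 1 array per sample. The 3d and 7d arrays were on the same slide, the sham arrays on a different one, which means that stroke and slide cannot be told apart in either comparison with the sham group. With 3 arrays per group, the number of arrays limits the precision. The m6A level of a probe is the percentage that normalised IP makes of normalised IP plus Sup. Expression means the sum of both intensities. Brightness depends on how well each probe hybridises, so the order of levels or expression over probes is a description only.

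Most of the linear probes were above their local background after the digestion, and a minority were brighter than the negative control probes in both channels. In both channels, 42 of the 50 were well above background on at least 3 of the 9 arrays and entered the test, and 34 were so on all 9. Brighter than all negative control probes in both channels on at least 3 arrays were 17 of the 42; per array, 16 to 25 of the 50 were so in the IP and 13 to 21 in the Sup. The 8 that did not pass were Tyr, Cep41, Bambi, Cav2, Kcnn2, Dnajc11, Nup50 and Trp53rka. Per array, 37 to 42 of the 50 were well above background in both channels (74% to 84%), beside 75.3% to 86.3% of the circRNA probes. Signals were low: the median pixel intensity of the mRNA probes was 39.6 to 61.0 in the IP channel, over a median local background of 15 to 22. The median normalised IP of the tested mRNA probes was 58.6 ± 1.68 (SD, n = 3), 68.1 ± 1.02 and 63.4 ± 6.48 on the sham, 3d and 7d arrays, and the median Sup was 120.6 ± 5.82, 149.5 ± 10.4 and 109.3 ± 1.60. For 9 of the 42 the IP value was within 1.5 times that of a spot without signal on all 9 arrays, and for 18 it was so on no array. A spot without signal in either channel has a level of 36.3% ± 1.88 on the sham, 36.7% ± 1.76 on the 3d and 39.0% ± 1.92 on the 7d arrays, so for a dim probe a level near these values is what no signal would give. Several members have only an upper bound in a group because their IP was well above background on none of its arrays: E2f1 in the 3d group, Ppara in the sham group, and Carhsp1 and ENSMUST00000232505 in the 7d group.

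The repeated spots give the technical spread of each probe. Over the 50 mRNA probes the median SD between spots of 1 array was 0.06 (log2) for IP and 0.05 for Sup, and the median SD between arrays of a group was 0.10 for both. The spread between arrays was the larger for 50 of 50 probes in IP, 46 in Sup and 44 in the ratio of the channels. Lhx1, Duox1 and Olfr1307 had the widest spread of the ratio between arrays (SD 0.47, 0.44 and 0.43, log2), while the SD between their spots within an array was 0.05, 0.07 and 0.05. Across the tested probes, the median SD between arrays of the log2 level was 0.06 for the mRNA probes and 0.08 for the circRNA probes, which have 1 spot each. For log2 expression it was 0.106 and 0.114.

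The m6A level of the linear transcripts as a set was compared with that of the circRNAs on the same arrays. The median level of the 42 tested mRNA probes was 35.0% ± 0.788 in sham tissue, 32.6% ± 0.252 at 3d and 38.4% ± 1.48 at 7d. On the same arrays the median circRNA had a level of 33.7% ± 0.408, 32.8% ± 0.0854 and 36.7% ± 1.31. The difference (mRNA minus circRNA) was 1.25 ± 0.380 percentage points in sham tissue, -0.188 ± 0.334 at 3d and 1.69 ± 0.364 at 7d. It was above 0 on each of the 3 sham and 3 7d arrays and below 0 on 2 of the 3 3d arrays, where its sign turned to 0.188 points with within-array loess and to 0.366 with only the probes well above background on all 9 arrays. The processed signals gave 2.37, 0.167 and 2.92 for sham, 3d and 7d, and the 17 members brighter than the negative control probes, a choice made after seeing the data, 3.69, -2.53 and 3.76, so the size depends on the processing and on the members taken. Over the 9 arrays, the mean levels of the mRNA probes ran from 12.4% to 52.4% with a median of 34.9%. The circRNA probes had a median of 34.5%, with 10th and 90th percentiles of 23.2% and 40.9%. There were 2 mRNA probes below this range and 6 above it. On every array 13 of the 42 lay above the median circRNA, and 9 lay above it on none.

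**Figure D1:**
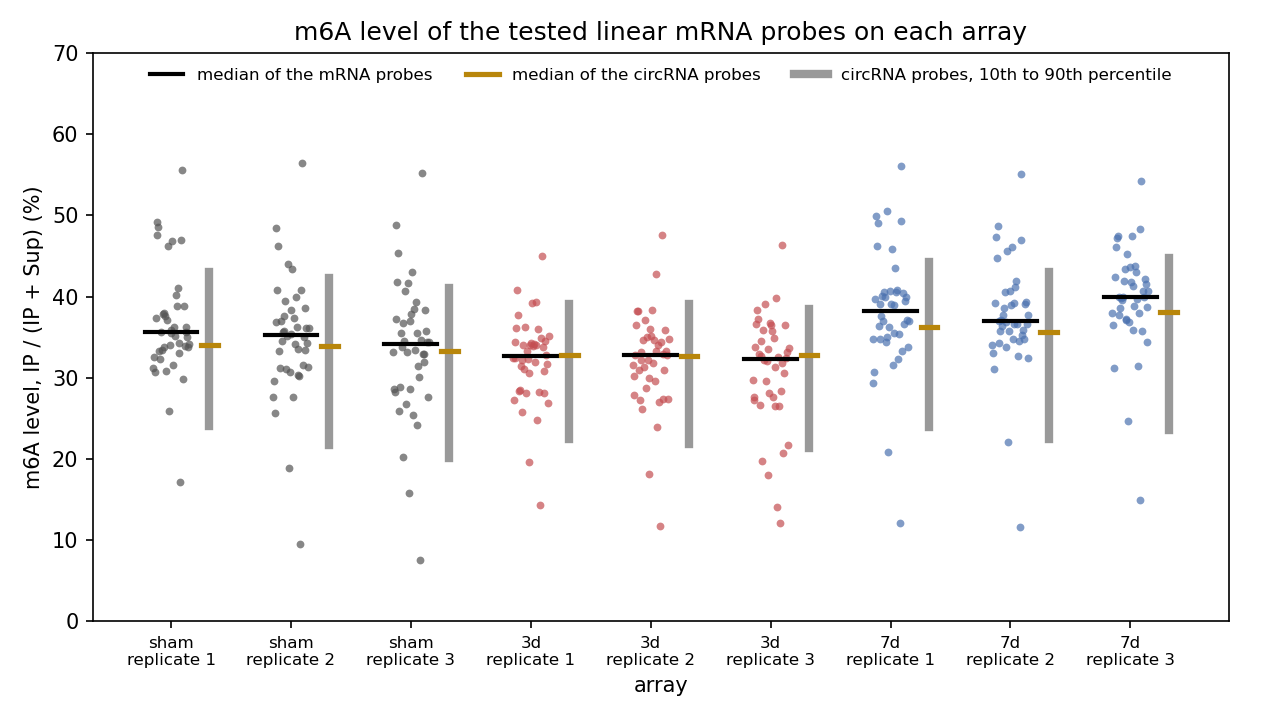
m6A level (percentage of IP in IP plus Sup) of the 42 tested linear mRNA probes on each of the 9 arrays; points are probes, black lines their median, gold lines the median circRNA probe and grey bars the 10th to 90th percentile of the circRNA probes. The mRNA median was 34.1% to 35.6% on the sham arrays, 32.3% to 32.8% on the 3d arrays and 36.9% to 39.9% on the 7d arrays.

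Grouped by what the genes do, the immune genes had a median level of 38.1% (5 of 5 tested; 31.1% to 42.9%) and abundant or housekeeping transcripts 35.2% (8 of 8; 29.8% to 42.9%). The genes of lipid oxidation and peroxisomes had a median of 33.9% (4 of 4; 30.8% to 52.4%), those of membrane traffic, autophagy and the nuclear pore 33.4% (4 of 6; 29.9% to 44.3%), and the neuronal genes Gabrg1 and Chgb had levels of 35.0% and 35.6%. The olfactory receptors Olfr1307 and Olfr166 were at 12.4% and 40.5%. The 4 transcripts without a RefSeq gene had a median of 34.0% (31.2% to 39.4%), and the 10 tested of 13 other genes 35.4% (20.5% to 39.8%). The ranges of the groups given all overlap, and not all groups are given.

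The highest level was that of Pex11a, a peroxisomal membrane protein that acts in peroxisome division. Its level was 55.5%, 56.5% and 55.2% on the sham arrays, 45.0%, 47.6% and 46.3% on the 3d arrays and 56.0%, 55.1% and 54.2% on the 7d arrays. It was the only tested mRNA probe whose mean level over the 9 arrays exceeded 50%, and all 3 of the 3d arrays lay below all the others. For Anxa8, an annexin that binds membranes in the presence of calcium, the sham arrays gave 49.1%, 48.4% and 48.9%, the 3d arrays 36.1%, 36.5% and 36.6% and the 7d arrays 49.9%, 47.3% and 46.1%. The 3d arrays lay within 1 point of each other and more than 9 points below every sham and 7d array. H2-M2, a non-classical class I histocompatibility gene, was at 46.8%, 43.4% and 43.0% on the sham arrays, at 39.2%, 38.3% and 35.7% on the 3d arrays and at 45.8%, 46.1% and 47.4% on the 7d arrays. The 3d arrays were again the lowest and the sham and 7d arrays overlapped. By their mean over 9 arrays the levels were 52.4% ± 4.64 (SD), 44.3% ± 6.05 and 42.9% ± 4.20, and the last 2 do not differ beyond their spread.

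At the other end was Olfr1307, an olfactory receptor gene. Its level was 17.2%, 9.52% and 7.58% on the sham arrays, 14.3%, 11.8% and 12.1% on the 3d arrays and 12.1%, 11.6% and 15.0% on the 7d arrays, and the groups overlap. Its Sup intensity was 1896, 2118 and 6158 on the sham arrays, 4755, 3527 and 3787 on the 3d arrays and 1248, 1440.5 and 777 on the 7d arrays. Sham replicate 3 was the brightest of the 9 and the 7d arrays were the dimmest. The probe of the predicted gene Gm9789 had levels of 25.9%, 18.9% and 15.7% on the sham arrays, 19.7%, 18.2% and 17.99% on the 3d arrays and 20.9%, 22.1% and 24.7% on the 7d arrays. The 7d arrays lay above the 3d arrays and within the range of the sham arrays. Actb (beta-actin of the cytoskeleton) and Tm9sf1 (a multi-pass membrane protein of the nonaspanin family) followed, with means over the 9 arrays of 29.8% ± 2.14 and 29.9% ± 4.29, which do not differ beyond their spread. Tm9sf1 was at 33.8%, 31.3% and 27.6% on the sham arrays, 26.9%, 27.4% and 21.7% on the 3d arrays and 33.8%, 32.4% and 34.4% on the 7d arrays, with the 3d arrays below all the others.

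In expression, 8 of the 50 mRNA probes lay above the 90th percentile of the circRNA probes, all of them tested, and 6 below the 10th percentile, of which 0 were tested. Of the brain transcripts named above, Apoe was 6.51, Mbp 0.983 and Chgb 0.877 times as bright as the median circRNA probe. Of those not typical of cortex, Olfr1307 was 15.6, Olfr166 11.4, Il2 1.66 and Tyr 0.709 times as bright. Whether these signals come from the named transcripts was not tested. The brightest by the mean of the log2 values was Pex11a; by the plain mean it was Olfr1307 (3235, beside 3047 for Pex11a). Pex11a had normalised intensities of 3114, 4008 and 4044 on the sham arrays, 2231, 2496 and 3542 on the 3d arrays and 2938, 2289 and 2759 on the 7d arrays. The 7d arrays lay below the sham arrays, and 3d replicate 3 lay within the sham range. The dimmest of the 50 did not enter the test. Cav2, a caveolin of plasma membrane pits, gave 113, 103 and 106 on the sham arrays, 127, 117 and 107 on the 3d arrays and 109.7, 109.8 and 121 on the 7d arrays, and was well above background on no array in either channel. For Kcnn2, a calcium-activated potassium channel of neurons, the sham arrays gave 115, 108 and 111, the 3d arrays 131, 119 and 112 and the 7d arrays 111, 113 and 122. Neither Kcnn2 nor Tyr was well above background in the IP on any array. For Tyr the sham arrays gave 124, 113 and 118, the 3d arrays 142, 125 and 119.5 and the 7d arrays 116, 117 and 128. Nup50, of the nuclear pore, gave 121, 114 and 114 on the sham arrays, 145, 131 and 124 on the 3d arrays and 121, 120.1 and 135 on the 7d arrays. Nup50 was well above background in the IP on 3 of the 9 arrays. No fold change is given for these 4.

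Compared with the sham group, the m6A level at 3d was below its sham value for 34 of the 42 linear transcripts and above it for 8, but below it for 15 when scaled on all spike-in probes. The median log2 change was -0.11 for the mRNA probes and -0.03 for the circRNA probes, of which 41% were above 0. With all spike-in probes for scaling the medians were 0.04 and 0.10, so the direction of the set turned with the scaling while the mRNA median stayed below the circRNA median. By limma at an unadjusted P under 0.05 and any fold, 21 of 42 members (50%) differed, against 30.9% of all 12253 probes. Their spread between arrays was smaller than that of the circRNA probes, and its part in this share was not tested. With limma at the thresholds of the study's methods (more than 1.5-fold, P before adjustment under 0.05), 1 member was called (2.38% of them), against 2.01% of all probes, a share near the background. The methods' t-test at the same thresholds called 0, against 0.718% of all probes. Limma on the processed signals called 16, all lower, against 18.4% of all probes with these signals. With the adjusted p in place of P, 0 members and 1.21% of all probes were called.

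The member called was Lhx1, a LIM homeobox transcription factor. Its level was 41.1%, 33.5% and 24.2% on the sham arrays and 24.8%, 24.0% and 14.05% on the 3d arrays. The groups overlap, because sham replicate 3 was lower than 3d replicate 1. Each 3d array was below the sham array of the same replicate number, but the labels do not pair sham with 3d mice. The description of sham replicate 3 also carries another number than its title. The log2 change was -0.67 (SE 0.23, adjusted p = 0.0857) by limma, which does not pass after adjustment. With the replicate number as a block the adjusted p was 0.0332 on all 9 arrays and 0.0183 on the 6 sham and 3d arrays, the latter fit chosen after seeing the data, so the call after adjustment depends on the block. Without a block, Lhx1 also passed after adjustment when background was not corrected and when sham replicate 3 was left out. The change was -0.42 with all spike-in probes, -0.54 with centring and -0.19 with loess, called in none of these, -0.625 (also not called) with the processed signals, and -0.87 to -0.40 without 1 array. It was not called without sham replicate 1, sham replicate 2 or 3d replicate 3 (0 members called each). Without sham replicate 3 there were 2 called, Lhx1 and Duox1. Changes with a smaller spread, but below the fold threshold, were seen for Anxa8, at a log2 change of -0.42 (SE 0.04, adjusted p = 0.00456), with every 3d array below every sham array. With loess it was -0.14. Gamt, an enzyme of creatine synthesis named after its values were seen, had levels of 46.3%, 44.0% and 41.6% on the sham arrays and 32.3%, 32.2% and 33.5% on the 3d arrays. All 3 of the 3d arrays lay below the sham arrays, and the log2 change was -0.43 (SE 0.06, adjusted p = 0.00480), or -0.04 with loess. The change was -0.27 (SE 0.04, adjusted p = 0.00588) for Pex11a and -0.24 (SE 0.05, adjusted p = 0.0194) for H2-M2, each with non-overlapping groups, and with loess both turned to above 0 (0.08 and 0.09). Il2 was likewise chosen after its values were seen. Its levels were 40.2%, 40.0% and 39.3% on the sham arrays and 34.0%, 33.3% and 31.3% on the 3d arrays, with every 3d array below every sham array. Its change of -0.28 (SE 0.05, adjusted p = 0.00769) was -0.13 with loess.

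In level, 7d vs. sham had fewer called members. The log2 change was above 0 for 40 of 42 members (22 with centring or loess) and below 0 for Anxa8 and Pex11a (-0.03 and -0.02), with a median of 0.14, beside 0.10 for the circRNA probes, 85.8% of which were above 0. With each channel centred on its median circRNA the members' median was 0.01 and with loess 0.00245. At the study's thresholds limma called 0 members, against 0.269% of all probes, and 0 with the adjusted p, against 0%. The methods' t-test also called 0, against 0.0653% of all probes. At an unadjusted P under 0.05 and any fold, 18 of 42 (42.9%) differed, against 26.5% of all probes. The part of the members' smaller spread between arrays in this share was not tested. The largest change was that of Duox1, at 0.36, which was not called. Without sham replicate 1 there was 1 member called, Olfr1307, at a higher level.

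The 2 times after occlusion were compared on arrays that share a slide. In 7d vs. 3d the log2 change was above 0 for 41 of 42 members (25 with all spike-in probes, 29 with loess) and below 0 for Mbp, with a median of 0.26, beside 0.14 for the circRNA probes, 79.6% of which were above 0. With all spike-in probes the medians were 0.03 and -0.07, and with loess 0.04 and -0.01, so the sign of the mRNA median held and that of the circRNA median did not. At an unadjusted P under 0.05 and any fold, 33 of 42 members (78.6%) differed, against 55.3% of all probes. The part of their smaller spread between arrays in this share was not tested. Limma called 3 at the study's thresholds, all higher (7.14%), against 3.52% of all probes, and the same 3 passed with the adjusted p, against 3.23%. The methods' t-test called the same 3, and 1 (Duox1) after adjustment, against 2.79% and 1.69% of all probes. With the processed signals 21 were called, all higher, these 3 among them, against 25.3% of all probes. For limma's 3 calls, with or without adjustment, the shares differ by 1 or 2 probes at this number of members. The members' changes ranged from -0.09 to 0.94.

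Those 3 were Lhx1, Duox1 and Prdx2. Lhx1 was at 24.8%, 24.0% and 14.05% on the 3d arrays and 40.8%, 36.7% and 39.7% on the 7d arrays. The groups do not overlap, and 3d replicate 3 was far below the other 3d arrays. Its level rose by 0.94 (SE 0.23, adjusted p = 0.0130) on the log2 scale. Duox1, a dual oxidase that makes hydrogen peroxide, was at 25.8%, 26.2% and 19.7% on the 3d arrays and 40.0%, 36.3% and 39.6% on the 7d arrays, with no overlap and again the lowest value on 3d replicate 3. Its log2 change was 0.70 (SE 0.21, adjusted p = 0.0276). Prdx2, a peroxiredoxin that breaks hydrogen peroxide down, was at 28.1%, 27.3% and 20.7% on the 3d arrays and 40.4%, 35.9% and 40.7% on the 7d arrays, also with no overlap and the lowest value on 3d replicate 3. Its log2 change was 0.63 (SE 0.12, adjusted p = 0.00459). The sham levels were 38.8%, 35.0% and 32.9% for Prdx2 and 37.9%, 35.7% and 20.2% for Duox1. The Prdx2 sham arrays overlap the 7d arrays and lie above the 3d arrays, while sham replicate 3 of Duox1 lies with the 3d arrays. Without 3d replicate 3, 1 member was called, Lhx1, and the changes were 0.68 for Lhx1, 0.57 for Duox1 and 0.49 for Prdx2. After adjustment only Prdx2 was called without 7d replicate 3, and Duox1 was lost without 7d replicate 1 or 7d replicate 2. With all spike-in probes and with centring only Lhx1 was called, and with loess none was; all 3 changes stayed above 0 but were smaller. With all spike-in probes they were 0.59 for Lhx1, 0.38 for Duox1 and 0.32 for Prdx2, with centring 0.65, 0.45 and 0.40, and with loess 0.35, 0.31 and 0.30. Below the fold threshold, the change was 0.39 (SE 0.04, adjusted p = 0.00196) for Anxa8, the smallest adjusted p of the members, which Il2 and Gamt share. With loess it was 0.11.

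**Figure D2:**
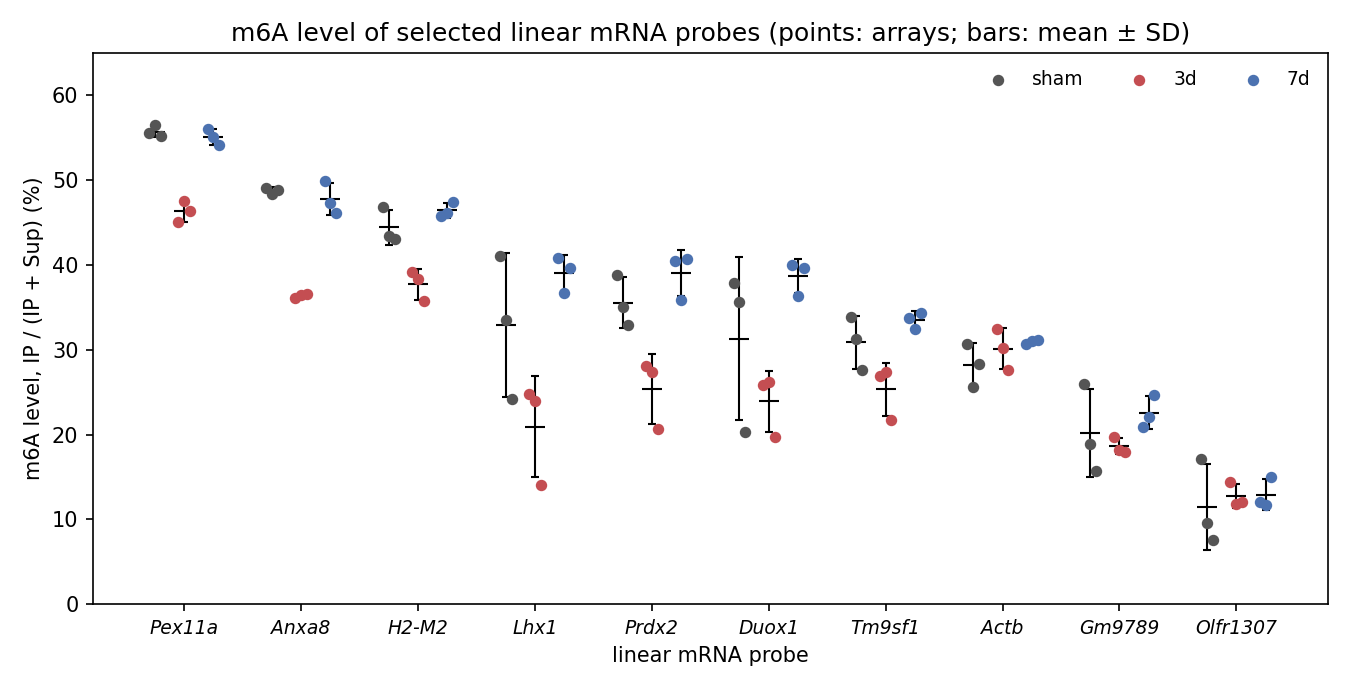
m6A level (percentage of IP in IP plus Sup) of 10 linear mRNA probes in the sham, 3d and 7d groups; points are arrays and bars the mean ± SD of 3 arrays. The 3d arrays of Anxa8 (36.1% to 36.6%) lie below its sham and 7d arrays (46.1% to 49.9%), while Olfr1307 stays between 7.58% and 17.2%; with loess within arrays the 7d vs. 3d changes of Pex11a and H2-M2 turn to -0.14 and -0.11.

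In 3d vs. sham, the log2 change in expression was above 0 for 37 of 42 linear transcripts (22 with centring, 23 with quantile normalisation), with a median of 0.22, beside 0.17 for the circRNA probes, of which 86.4% were above 0. With centring on the median circRNA the members' median was 0.01, and with quantile normalisation 0.01. At an unadjusted P under 0.05 and any fold, 26 of 42 (61.9%) differed by limma, against 38.4% of all probes. The part of the members' smaller spread between arrays in this share was not tested. Limma and the methods' t-test each called 1 member (2.38%) at the study's thresholds, higher, against 1.86% and 0.702% of all probes. For limma this is a share near the background. With the adjusted p 0 were called, against 0.049%. The member called was Gabrg1, a gamma subunit of the GABA type A receptor. Its expression was 157, 142 and 149 on the sham arrays and 214, 197 and 298 on the 3d arrays, or 149 ± 7.61 and 236 ± 54.1. The groups do not overlap, and 3d replicate 3 was the highest. Expression rose by a log2 change of 0.64 (SE 0.14, adjusted p = 0.0520). Gabrg1 passed after adjustment without background correction, with all spots kept and without sham replicate 3, where Gm9789 and Olfr1307 passed too. Under each scaling tried the change of Gabrg1 stayed above 0 (0.42 to 0.51) but not past the fold threshold. Gabrg1 is not among the 17 members brighter than the negative control probes, of which 0 were called, against 1.86% of all probes with this limit. With the processed signals 11 were called, all higher, Gabrg1 among them, against 22.2% of all probes. Without 3d replicate 3 it was not called, and Pex11a was called lower instead, as it was with all spike-in probes and with centring (-0.60 and -0.73). Without sham replicate 3 and without 3d replicate 1 there were 3 called, and without 3d replicate 2 there were 2.

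In 7d vs. sham, limma called lower expression for 3 members, and the changes of the set lay on both sides of 0. Changes were above 0 for 14 and below 0 for 28, with a median of -0.06, beside 0.05 for the circRNA probes (60.7% above 0). The members' median turned to 0.02 with all spike-in probes and to 0.16 when each spot kept its own local background. At an unadjusted P under 0.05 and any fold, 9 of 42 (21.4%) differed, against 19.6% of all probes, a share near the background. The 3 called at the study's thresholds (7.14%) stand against 2.67% of all probes. The methods' t-test called only 1 of them, Olfr166, against 1.59% of all probes. With the processed signals 10 were called, these 3 among them, against 14.2% of all probes. With limma's adjusted p 0 were called, against 0.0408%. Olfr1307 had an expression of 2289, 2342 and 6663 on the sham arrays and 1420.3, 1630.3 and 914 on the 7d arrays. All 7d arrays lay below the sham arrays, among which sham replicate 3 was far above the other two. By limma without adjustment its expression fell, at a log2 change of -1.36 (SE 0.40, adjusted p = 0.181). Duox1 gave 538, 632 and 1379 on the sham arrays and 403, 397 and 409 on the 7d arrays, with no overlap and the highest value again on sham replicate 3, and its log2 change was -0.95 (SE 0.35, adjusted p = 0.218). Olfr166, another olfactory receptor, gave 1945, 2314 and 2794 on the sham arrays and 1557, 1351 and 1578 on the 7d arrays, with no overlap. It fell by both tests without adjustment, at a log2 change of -0.64 (SE 0.19, adjusted p = 0.181). All 3 changes stayed below 0 under each scaling tried, but Olfr166 was not called with all spike-in probes or with quantile normalisation (2 called in each). Without sham replicate 3 the changes were -0.85 for Olfr1307, -0.53 for Duox1 and -0.51 for Olfr166. Only Olfr1307 was called without sham replicate 3 and without 7d replicate 2 (1 member each). Without 7d replicate 1 and without 7d replicate 3 there were 2, since Duox1 was lost. Without sham replicate 1 there were 4, with Pex11a added.

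Between the time points, in 7d vs. 3d, the log2 change in expression was below 0 for 40 of 42 members (26 with all spike-in probes, 30 with quantile normalisation). The median log2 change was -0.26, beside -0.12 for the circRNA probes, of which 20.8% were above 0. With all spike-in probes these medians were -0.05 and 0.07, and with quantile normalisation -0.06 and 0.02, so here too the sign held for the mRNA probes and turned for the circRNA probes. At an unadjusted P under 0.05 and any fold, 28 of 42 (66.7%) differed, against 33.6% of all probes. Here too the part of the members' smaller spread between arrays was not tested. At the study's thresholds limma called 7 (16.7%), all lower, against 8.25% of all probes, and with the adjusted p 5 were called (11.9%), against 5.85%. The 7 were Olfr1307, Lhx1, Duox1, Gm9789, Prdx2, Tm9sf1 and Gabrg1, of which Lhx1 and Duox1 did not pass with the adjusted p. The methods' t-test called 5, without Lhx1 and Prdx2, and 1 (Gm9789) after adjustment, against 6.39% and 2.26% of all probes. With the processed signals 23 were called, all lower, these 7 among them, against 28.2% of all probes. Of the 17 members brighter than the negative control probes 6 were called, all but Gabrg1, against 8.26% of all probes with this limit. With every spot's own background 6 were called, without Gabrg1 and Tm9sf1 and with Olfr166, against 8.38% of all probes.

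Of these, Olfr1307 changed most: its expression was 5552, 3998 and 4306 on the 3d arrays and 1420.3, 1630.3 and 914 on the 7d arrays. Every 3d array was above every 7d array by more than the range of either group. Its expression fell at a log2 change of -1.83 (SE 0.40, adjusted p = 0.0209). Lhx1 was at 1372, 1471 and 4099 on the 3d arrays and 821, 841 and 855 on the 7d arrays. The 7d arrays were close together and below all 3d arrays, and 3d replicate 3 was far above the rest. This is a log2 change of -1.27 (SE 0.39, adjusted p = 0.0584), or -0.76 without 3d replicate 3. For Duox1 the 3d arrays gave 619, 597 and 1146, again with replicate 3 the highest, all above the 7d arrays, and the log2 change was -0.90 (SE 0.35, adjusted p = 0.114), or -0.59 without that array. The drop in Lhx1 lay more in the unbound fraction than in the bound one: its Sup was 1032, 1118 and 3523 on the 3d arrays and 486, 533 and 516 on the 7d arrays, and its IP was 339.6, 353 and 576 on the 3d arrays and 335, 308 and 339.5 on the 7d arrays. In the Sup the groups do not overlap; in the IP the highest 7d array is level with the lowest 3d array.

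The other 4 passed with the adjusted p as well. Under each scaling tried, and without 7d replicate 1 or 7d replicate 2, 0 members were called with the adjusted p. Gm9789 was at 599, 558 and 598 on the 3d arrays and 365, 339 and 336 on the 7d arrays, and Prdx2 at 389, 405 and 659 on the 3d arrays and 285, 299 and 304 on the 7d arrays. For both all 7d arrays lay below all 3d arrays; the 3d arrays of Gm9789 were close together, and for Prdx2 replicate 3 was the highest. Both fell, with a log2 change of -0.76 (SE 0.16, adjusted p = 0.0191) for Gm9789 and -0.67 (SE 0.19, adjusted p = 0.0422) for Prdx2, the latter -0.42 without 3d replicate 3. Tm9sf1 was at 279, 262 and 381 on the 3d arrays and 188, 196 and 208 on the 7d arrays, and Gabrg1, whose 3d values are given with the sham comparison, at 149, 150.3 and 163 on the 7d arrays. Neither overlaps between the groups, and replicate 3 was the highest 3d array for both. The log2 change was -0.62 (SE 0.15, adjusted p = 0.0286) for Tm9sf1 and -0.59 (SE 0.14, adjusted p = 0.0259) for Gabrg1, or -0.46 and -0.42 without that array. On 3d replicate 3 the median mRNA probe was 0.24 (log2) brighter than the median circRNA, beside -0.12 to 0.06 on the other 8 arrays. All 7 stayed below 0 under each scaling tried, but 2 were called with all spike-in probes (Olfr1307 and Lhx1), 3 with centring and 2 with quantile normalisation. Of all probes, 6.01%, 5.19% and 5.18% were called with these 3 scalings. Without 3d replicate 3 there were 3 called (Gm9789, Olfr1307 and Lhx1). Without 7d replicate 1 and without 7d replicate 2 there were 5, as Gabrg1 and Duox1 were lost, and without 7d replicate 3 there were 6, as Duox1 was lost.

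**Figure D3:**
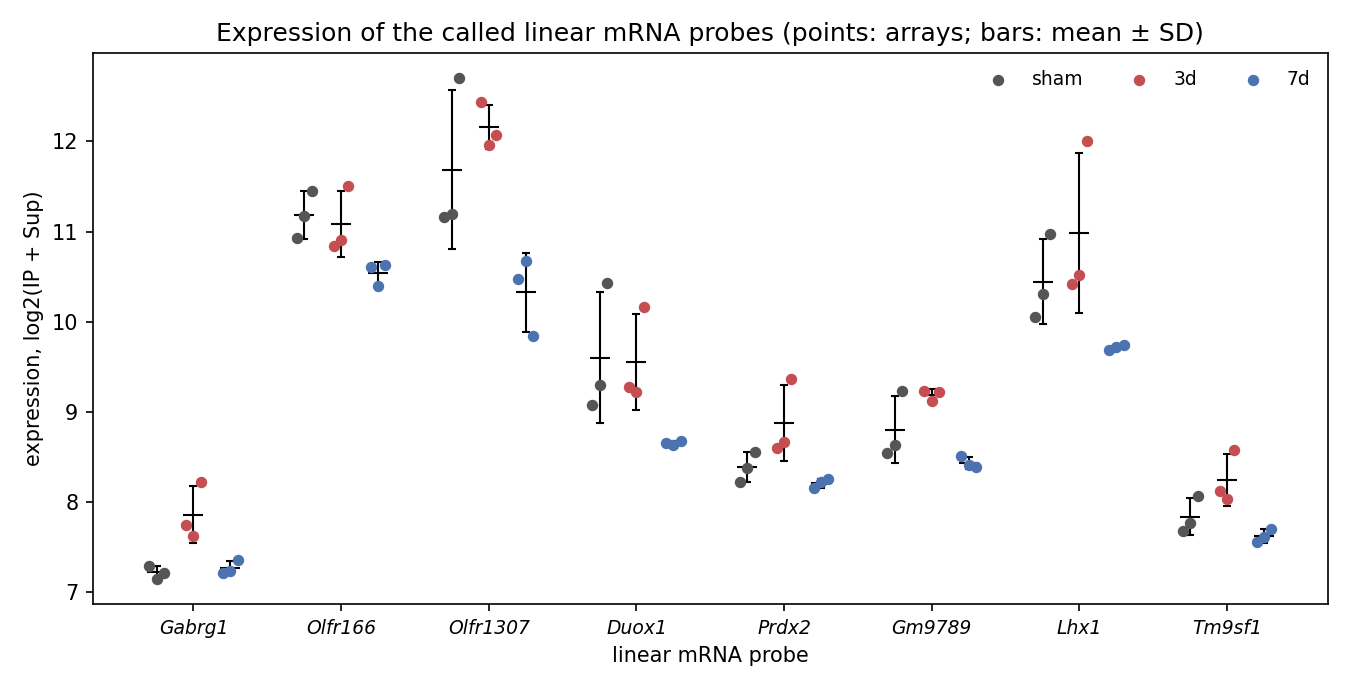
Expression, log2 of the sum of normalised IP and Sup intensity, of the 8 linear mRNA probes called in at least 1 comparison; points are arrays and bars the mean ± SD of 3 arrays. For Lhx1 and Duox1 the 7d arrays (9.68 to 9.74 and 8.63 to 8.68) lie below all sham and 3d arrays, and the highest 3d value of both is on 3d replicate 3.

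Of the gene lists for brain cell types, m6A enzymes, injury response and reference genes, only 3 genes have a linear probe, so these probes cannot describe the cell types or the m6A machinery. Mbp, a myelin protein of oligodendrocytes, had levels of 34.3%, 30.3% and 31.5% on the sham arrays, 36.0%, 34.0% and 32.5% on the 3d arrays and 32.3%, 32.6% and 31.4% on the 7d arrays. The groups overlap, and its expression (152 ± 17.2, 176 ± 17.0 and 184 ± 31.5) was not called in any comparison. Actb had levels of 30.7%, 25.6% and 28.3% on the sham arrays, 32.4%, 30.2% and 27.6% on the 3d arrays and 30.7%, 31.1% and 31.1% on the 7d arrays, and the groups overlap. Its expression was 165, 181 and 167 on the sham arrays, 227, 212 and 207 on the 3d arrays and 176, 194 and 217 on the 7d arrays. The 3d arrays lay above the sham arrays, and the log2 change of 0.33 (SE 0.09, adjusted p = 0.0561) is below the fold threshold, though called with the processed signals. Rps4l, named after a ribosomal protein and given by RefSeq as a transcribed pseudogene, had levels of 35.7%, 38.6% and 38.3% on the sham arrays, 34.5%, 35.9% and 36.5% on the 3d arrays and 39.4%, 39.1% and 42.2% on the 7d arrays. The 7d arrays were the highest, and the 7d vs. 3d change of 0.17 (SE 0.05, adjusted p = 0.0274) turned to -0.04 with all spike-in probes. Rps4l expression was 139.6, 135 and 140.5 on the sham arrays, 174, 166 and 169 on the 3d arrays and 145, 154 and 169.6 on the 7d arrays. Its sham arrays were the lowest, and neither its level nor its expression was called, except for expression in 3d vs. sham with the processed signals. In bulk tissue, fewer cells of a type and less RNA per cell cannot be told apart.

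Since many linear probes are dim, the 8 brightest were set beside the 1424 tested circRNA probes above the same expression, a choice made after the values were seen. Their median log2 change in level was -0.29 in 3d vs. sham, beside -0.30 for the bright circRNAs, and 0.33 in 7d vs. 3d, beside 0.37. In 3d vs. sham 7 of the 8 were below 0 and Olfr1307 above, and in 7d vs. 3d all 8 were above 0. With loess both medians turned, to 0.08 for the mRNA probes and 0.09 for the circRNA probes in 3d vs. sham, and to -0.11 and -0.09 in 7d vs. 3d. Their expression had medians of 0.16 in 3d vs. sham (0.15 for the bright circRNAs), -0.40 in 7d vs. sham (-0.26) and -0.35 in 7d vs. 3d (-0.39). With quantile normalisation the last pair turned to 0.09 and 0.08 and the 7d vs. sham pair was -0.11 and 0.02, and with centring the 3d vs. sham pair turned to -0.12 and -0.12. Without 3d replicate 3 the expression medians were 0.02 and 0.01 in 3d vs. sham and -0.22 and -0.17 in 7d vs. 3d, and without sham replicate 1 0.05 and 0.04 in 3d vs. sham. The difference between bright linear and bright circular probes was not tested.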

How the data were processed

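Samples were 3 sham, 3 3d and 3 7d arrays with an IP and a Sup channel each, grouped by their titles. The intensity values (median pixel signal, local background and processed signal) and the marks on each spot, of the kind other (0 or 1), are deposited as read by the submitters with Agilent Feature Extraction 11.0.1.1, per their processing notes. The log2 values of the authors' deposited table cover circRNA probes only and gave only the choice of spike-in probes: the means of 10 of the 102 give the table's constants, with a largest difference of 5.6e-10. No columns of other samples were read.

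In R 4.3.3 with limma 3.58.1 and jsonlite 2.0.0, marked spots (203 of 4500 IP and 168 of 4500 Sup spots of the mRNA probes) were left out, background was corrected by normexp with an offset of 50, spots were averaged on the log2 scale, and each channel was shifted to the common mean of the 10 spike-in probes. On 7d replicate 3, 5 spots, of which 0 were of mRNA probes, had a local background over 3 times the median of the array (up to 7567 in IP beside a median of 22). After seeing the data these were left out and given the median background for the fit. With their own background the normexp mean of that array was -75.4 in IP, beside 1.88 without them and -0.65 to 2.04 on the other arrays.

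A probe was tested if well above background in at least 0.5 of its spots, in both channels, on at least 3 arrays. One limma fit covered 12253 probes (42 mRNA and 12211 circRNA). Calls used limma with the thresholds of the study's methods, a fold change above 1.5 with an unadjusted P below 0.05, with Benjamini-Hochberg adjusted p over all probes beside it. Every adjusted p in the text is from limma. The test was tried on simulated data.

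Named were the 4 members highest and the 4 lowest in level and in expression, the called members with non-overlapping groups (up to 3 per direction), and members of the lists; others were named after their values were seen. One tested member is not reported here. The members and lists were chosen with earlier results of these data known. Of the lists (brain and blood cell types, m6A machinery, housekeeping, ribosomal and mitochondrial proteins, histones, injury response), oligodendrocytes had Mbp, housekeeping Actb and ribosomal proteins Rps4l, and all the others 0. Symbols came from RefSeq (GRCm38.p6). The file headers name another build, so no coordinates are given. The main fit has no replicate block. Pearson's r across probes of the level residuals between arrays of the same number was 0.40, 0.21 and 0.46 for sham and 3d, and -0.14 to 0.05 for the others. For 3 samples the description carries another replicate number than the title, which was used. Alternatives were no correction, the processed signal, an offset of 16, all spike-in probes, centring on the median circRNA, loess or quantile normalisation, other filters and spot summaries, the test of the methods, a replicate block, only the arrays compared, and leaving out each array. Restricting members by the 15 negative control probes, keeping each spot's own background, adjusting the p of the methods' t-test and of the replicate block, and the block on the sham and 3d arrays were added after seeing the data.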

Additional observations from a re-analysis of the deposited data

Results flagged for a closer look

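The effects of the 7d and 3d groups, each measured against the same sham arrays, differed for 3 members in level and 5 in expression by the direct limma test of 7d vs. 3d (fold change above 1.5 and adjusted p below 0.05). These are 7.14% and 11.9% of the tested members, against 3.23% and 5.85% of all probes. In level, the log2 difference between the 7d and 3d effects was 0.63 for Prdx2, 0.94 for Lhx1 and 0.70 for Duox1, each with the 7d arrays above all 3d arrays. In expression it was -0.67 for Prdx2, -0.76 for Gm9789, -1.83 for Olfr1307, -0.59 for Gabrg1 and -0.62 for Tm9sf1, each with the 7d arrays below all 3d arrays. The highest Sup of Prdx2, Lhx1, Duox1, Gabrg1 and Tm9sf1 among the 3d arrays was on replicate 3, and without that array 1 of the 3 stayed called in level (Lhx1) and 2 of the 5 in expression (Gm9789 and Olfr1307) at the same thresholds. In expression 0 passed these thresholds without 7d replicate 1 or without 7d replicate 2, and 3 without 7d replicate 3. Also in expression, 0 passed with all spike-in probes, with centring or with quantile normalisation. In level only Prdx2 passed without 7d replicate 3, only Lhx1 with all spike-in probes or with centring, and 0 with loess.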

How the results depend on the processing

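The count of called members changed with the processing. The called changes kept their direction, while over all 42 members many changes did not: in level the count below 0 in 3d vs. sham went from 34 to 15 with all spike-in probes. Of 362 alternative values for the 15 called changes of 8 members, 277 stayed called, 85 kept their direction without being called and 0 turned. Settings that alter only the test or the filter, or use only the arrays compared, keep the size of a change. No direction could turn in these. The share of all probes called changed with the processing too. With the processed signals, 16 members were called in level in 3d vs. sham, 21 in 7d vs. 3d, and in expression 11 in 3d vs. sham, 10 in 7d vs. sham and 23 in 7d vs. 3d. Of all probes 18.4%, 25.3%, 22.2%, 14.2% and 28.2% were called. An offset of 16 gave 2 in expression in 3d vs. sham and 12 in 7d vs. 3d, against 3.73% and 13.3% of all probes. All spike-in probes gave 0 and 1 in level in 3d vs. sham and 7d vs. 3d, and 2 in expression in 7d vs. 3d, against 1.39%, 3.2% and 6.01% of all probes. Centring on the median circRNA gave 0, 1 and 3 for the same counts, against 0.792%, 1.25% and 5.19% of all probes. Loess gave 0 in level in 7d vs. 3d, and in 3d vs. sham 1 that was Olfr1307, higher, in place of Lhx1. Of all probes 3.56% and 1.84% were called. Quantile normalisation gave 0 in expression in 3d vs. sham and 2 in 7d vs. 3d, against 1.34% and 5.18% of all probes. The methods' t-test gave 0, 0 and 3 in level (3d vs. sham, 7d vs. sham, 7d vs. 3d) and 1, 1 and 5 in expression, and after Benjamini-Hochberg adjustment 0, 0 and 1 in level and 0, 0 and 1 in expression. Of all probes it called 0.718%, 0.0653% and 2.79% in level and 0.702%, 1.59% and 6.39% in expression. After adjustment these shares were 0.0163%, 0% and 1.69% in level and 0.122%, 0% and 2.26% in expression. The adjusted p gave 0 in level in 3d vs. sham and 0 in expression in 3d vs. sham and in 7d vs. sham, against 1.21%, 0.049% and 0.0408% of all probes. Of the alternatives chosen after seeing the data, negative control probes as the limit gave 0 in expression in 3d vs. sham, and every spot's own background 5 in 7d vs. sham. Of all probes 1.86% and 3.97% were called. With the replicate block the counts were 1, 0 and 3 in level (3d vs. sham, 7d vs. sham, 7d vs. 3d) and 1, 4 and 7 in expression, and with the adjusted p 1, 0 and 3 in level and 0, 0 and 7 in expression, where Lhx1 and Duox1 were added in 7d vs. 3d. Of all probes the block called 2.14%, 0.294% and 3.66% in level and 2.19%, 3.24% and 8.44% in expression. With the adjusted p these shares were 1.73%, 0% and 3.48% in level and 0.0245%, 0% and 6.54% in expression. With the block on the 6 sham and 3d arrays, added after seeing the data, 1 was called in level and 1 in expression, and 1 and 0 with the adjusted p. Of all probes this block called 2.11% and 2.39%, and 1.85% and 0.0979% with the adjusted p. In 3d vs. sham the block changed the call of Lhx1 in level after adjustment and no other. Same-numbered arrays of the other groups did not deviate together. Slide as a block gave no value, since the sham arrays are alone on their slide and 7d vs. 3d lies within 1 slide. Leaving out 1 array gave 0 to 2, 0 to 1 and 1 to 4 in level, and 1 to 3, 1 to 4 and 3 to 8 in expression. The shares of all probes were 0.881% to 3.53%, 0.0898% to 1.24% and 1.72% to 4.64% in level. In expression they were 1.09% to 4.52%, 1.07% to 4.9% and 5.87% to 10.7%. The mRNA minus circRNA level of the 3d group was 0.167 points with the processed signals, 0.0435 with an offset of 16, 0.188 with loess, 0.366 for probes well above background on all 9 arrays, -2.53 with negative controls as the limit, and -0.337 to -0.00741 without 1 array. For the 7d group it was 2.26 without background correction, 2.92 with the processed signals, 2.95 with an offset of 16, 2.63 for probes above background on all 9 arrays, 1.32 with no filter, 3.76 with negative controls, and 1.52 to 1.88 without 1 array. For the sham group these were 1.83, 2.37, 2.35, 1.87, 0.839, 3.69, and 1.1 to 1.46. The cause was not tested. Signal over background is low for many members: 17 of the 42 members were brighter than all negative control probes in both channels on at least 3 arrays.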
